A study of Oryza sativa with 6 samples.

Results

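The SAP genes (stress-associated proteins) and the LOL genes (LSD1-like) of rice encode small zinc finger proteins, and their mRNA was followed here in leaves of a transgenic rice line and its parent. The members were the probe sets that the array's annotation assigns to a single gene whose symbol or synonym, with or without the prefix Os, is SAP1, SAP4, SAP5, SAP6, SAP8, SAP11, SAP16, SAP17, LOL2 or LOL4. These 10 names led to 11 genes, because LOL2 is a synonym of 2 different genes, and to 13 of the 57381 probe sets in the table. The set was assembled around SAP17 and LOL4, which were chosen by their large log2 differences between the lines on these same arrays, so the values that follow describe the members and are not independent evidence for them.

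The study, on an Affymetrix rice array, measured RNA from leaves of seedlings that were 30 days old. Transgenic KMD rice was compared with untransformed plants of its parent, the cultivar Xiushui 11 (XS11), on 3 arrays of each. From general knowledge and not from the labels, KMD is a Bt rice with the insecticidal gene cry1Ab, and its labels give Xiushui 11 as its cultivar too. Both groups were grown alike in a climate chamber under a long light period, on nutrient salts at reduced strength. The stated purpose was to look for unintended effects of the transformation. KMD stands for a single transgenic line, so effects of the transgene, of its place of insertion and of tissue culture cannot be told apart. The samples are labelled as biological replicates and the number of plants behind each is not stated, so the spread given here is that between these samples.

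SAP proteins carry A20 or AN1 zinc fingers, or both. The A20 finger is named after a human protein that edits ubiquitin chains, and an Arabidopsis SAP protein with both fingers acts as a ubiquitin ligase. In rice, many SAP transcripts accumulate under cold, salt or drought, and raising SAP1 or SAP8 in transgenic plants improves tolerance of such stresses. The LSD1 family takes its name from the Arabidopsis gene LESION SIMULATING DISEASE 1, whose loss lets cell death spread through the leaf. Its members bear LSD1-type zinc fingers, and a rice gene named LOL2 has been linked to gibberellin content and plant height.

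All values are MAS5 signals, the submitters' background-corrected summary of each probe set on a linear scale. Differences are KMD minus XS11 of log2(signal + 11.17), where the added constant is the 10th percentile of all values in the table, and this constant makes the change of a dim probe set look smaller. SEs come from a limma fit over the 60% of probe sets with the highest mean signal and the array's reporter probe sets, and a difference is said to pass when its Benjamini-Hochberg adjusted p over all 34404 tested probe sets was under 0.05. Median signals of whole arrays ran from 35.5 to 38.7. Since leaf pieces hold many kinds of cell, fewer cells of a type and less RNA per cell cannot be told apart.

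SAP17 and LOL4 differed most among the members, and their order changed with the processing. The SAP17 signal was the dimmer of the pair. Its only probe set (gene LOC4346945) read 84.9, 83.3 and 88.1 on the 3 KMD arrays and 31.7, 30.9 and 25.4 on the 3 XS11 arrays. Every KMD array thus lay far above every XS11 array, and the XS11 signals lay below the median signal of their arrays. The means were 85.4 ± 2.43 in KMD and 29.3 ± 3.45 in XS11 (SD, n = 3 each), a ratio of 2.91. On the log2 scale with the added constant the difference was 1.26 (SE 0.09). With a constant of 1 it was 1.52 and with one of 18.5 it was 1.12, so the size of the SAP17 difference leans on how its dim XS11 signal is treated.

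LOL4, of the LSD1 family, differed by almost the same amount on the log2 scale and did so at a brighter signal. Its only probe set (gene LOC4344587) read 295, 312 and 280 in KMD against 118, 118 and 123 in XS11, again with no overlap. The means were 296 ± 15.9 and 120 ± 3.23 (SD, n = 3 each), a ratio of 2.47. The log2 difference was 1.23 (SE 0.06). LOL4 exceeded SAP17 with the constant of 18.5 (1.18), with quantile normalization (1.26 against 1.25), with array weights (1.23 against 1.22), without KMD replicate 3 (1.26 against 1.24) and without XS11 replicate 3 (1.25 against 1.18). SAP17 stood at percentile 99.0 and LOL4 at percentile 98.9 of absolute log2 differences among all tested probe sets. SAP17 and LOL4 were the members that differed by at least 2-fold, a size reached upward by 0.573% of all tested probe sets. Both had been picked for this, so no p-value is given for either. Their calls enter the counts and figures that follow as description only.

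**Figure D1:**
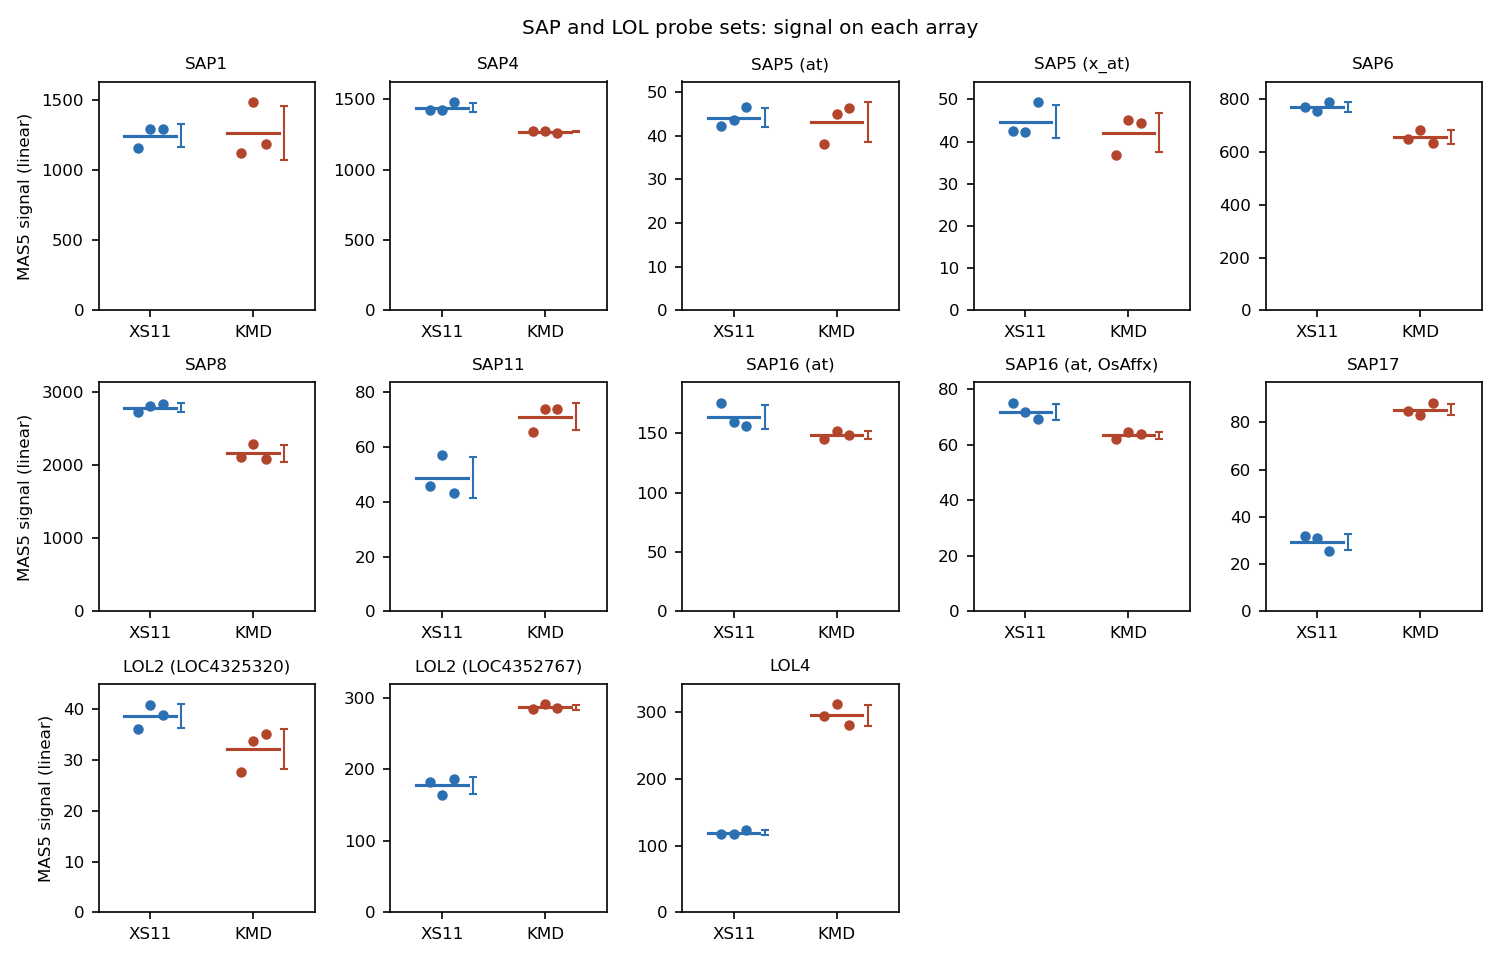
MAS5 signal (vertical axis, linear, from 0) of the 13 SAP and LOL probe sets on the 3 XS11 arrays (blue) and the 3 KMD arrays (red). Points are arrays, horizontal bars are means and the error bars to their right are SDs. SAP17, LOL4, SAP11 and the LOL2 gene LOC4352767 lie higher on all KMD arrays. SAP4, SAP6, SAP8, both SAP16 probe sets and LOC4325320 lie lower on all KMD arrays, the last 3 of these without passing.

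The 2 genes that share the name LOL2 went in opposite directions. LOC4352767 gave 284, 291 and 285 in KMD and 182, 165 and 186 in XS11. Its KMD arrays were all higher and close to one another, with a log2 difference of 0.66 (SE 0.06) that passed. LOC4325320, which the naming table also lists as LOL5, read 27.6, 33.9 and 35.1 in KMD and 36.2, 40.9 and 38.9 in XS11. Its KMD arrays were all lower, by a small margin and at a dim signal, and the log2 difference of -0.20 (SE 0.09, 95% interval -0.40 to -0.0036) did not pass. The table does not settle which of the 2 genes is the LOL2 of the gibberellin work.

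SAP11 was the other SAP gene that was higher in KMD. The SAP11 protein is known to bind a receptor-like cytoplasmic kinase, as SAP1 also does. SAP11 (LOC4345973) read 65.2, 73.9 and 73.6 in KMD and 45.8, 57.1 and 43.3 in XS11, so the groups did not overlap, although XS11 replicate 2 came nearer to KMD than the rest. The log2 difference of 0.46 (SE 0.10) passed. It was 0.56 without XS11 replicate 2 and 0.39 without XS11 replicate 3.

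The 3 SAP genes that were lower in KMD were among the brightest members, and their differences were small. SAP8 (LOC4341520), one of the genes tied to stress tolerance, read 2109, 2297 and 2086 in KMD and 2724, 2806 and 2838 in XS11. All KMD arrays were below all XS11 arrays, with means of 2164 ± 116 and 2789 ± 58.9 (SD, n = 3 each) and a log2 difference of -0.37 (SE 0.04). SAP6 (LOC4334392) read 649, 684 and 635 in KMD against 769, 753 and 788 in XS11, a log2 difference of -0.23 (SE 0.04). SAP4 (LOC4328609) varied little, at 1276, 1274 and 1265 in KMD and 1425, 1424 and 1480 in XS11, and its log2 difference was -0.18 (SE 0.03). All 3 passed, none with overlap between the lines.

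Their brightness is matched by a general lean. SAP4, SAP6 and SAP8 stood at percentiles 96.8, 93.5 and 98.5 of mean signal. SAP1, at percentile 96.4, was as bright and did not pass (0.01). Of all 5726 tested probe sets at or above percentile 90, 40.3% passed as lower in KMD and 28.1% as higher, with a median log2 difference of -0.04. Of the 22904 between percentiles 50 and 90, 20.8% passed as lower and 18.6% as higher. SAP11, SAP17, LOL4 and LOC4352767 lay in that second band, up to percentile 83.2 for LOC4352767. The part of brightness in the members' directions was not tested.

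SAP16, SAP5 and SAP1 did not pass. SAP16 (LOC4343653), which carries C2H2 fingers beside its AN1 fingers and is known for a role in germination at low temperature, is read by a pair of probe sets that gave the same picture. The brighter one read 146, 152 and 149 in KMD and 175, 160 and 156 in XS11. The dimmer one read 62.0, 64.5 and 63.8 in KMD and 74.9, 71.6 and 69.1 in XS11. On both, every KMD array was below every XS11 array, and the log2 differences were -0.13 (95% interval -0.26 to 0.0033) and -0.15 (95% interval -0.31 to 0.0036). Both intervals reach just above 0, so with 3 arrays a line neither difference stood clear of its error.

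SAP5 (LOC4329544) is read by probe sets built on 1 transcript sequence, so they are not separate measurements. The plain probe set read 38.0, 45.1 and 46.4 in KMD and 42.3, 43.5 and 46.7 in XS11. The x_at probe set, of a type that can also take signal from related transcripts, read 36.9, 45.2 and 44.4 in KMD and 42.6, 42.3 and 49.3 in XS11. The lines overlapped on both, with log2 differences of -0.03 (95% interval -0.22 to 0.16) and -0.07 (95% interval -0.27 to 0.13). KMD replicate 1 was the lowest array on both.

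SAP1 was bright and the most variable member. Its probe set (LOC4347423) read 1122, 1481 and 1185 in KMD and 1152, 1291 and 1289 in XS11. KMD replicate 2 was the highest of the 6 arrays and KMD replicate 1 the lowest, and the lines overlapped, with a log2 difference of 0.01 (SE 0.08, 95% interval -0.16 to 0.19). Its residual SD of 0.16 on the log2 scale stood at percentile 90.6 of all tested probe sets, against percentile 2.15 for SAP4 (0.02). Within the lines the members thus ran from very steady to unsteady. With an SE of 0.08 for SAP1 against 0.03 for SAP4, a change of SAP1 of the size seen in SAP4 could have been missed.

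In all, the 13 probe sets were all bright enough to be tested, and 7 passed, 4 higher and 3 lower in KMD. Over all 34404 tested probe sets 39.7% passed, 18.1% higher and 21.6% lower. The lines did not overlap on 10 of the 13 probe sets, higher in KMD on 4 and lower on 6. The lines were likewise apart on 48.8% of the whole tested table, with KMD higher on 23.1% and lower on 25.7%. The median log2 difference of the members was -0.07, and that of all tested probe sets 0.0017. Taken as 1 probe set per gene, the brightest, 7 of 11 genes passed, where 56.2% of all genes measured that way did. Since the contrast was known when the members were chosen, nothing is read from these counts.

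**Figure D2:**
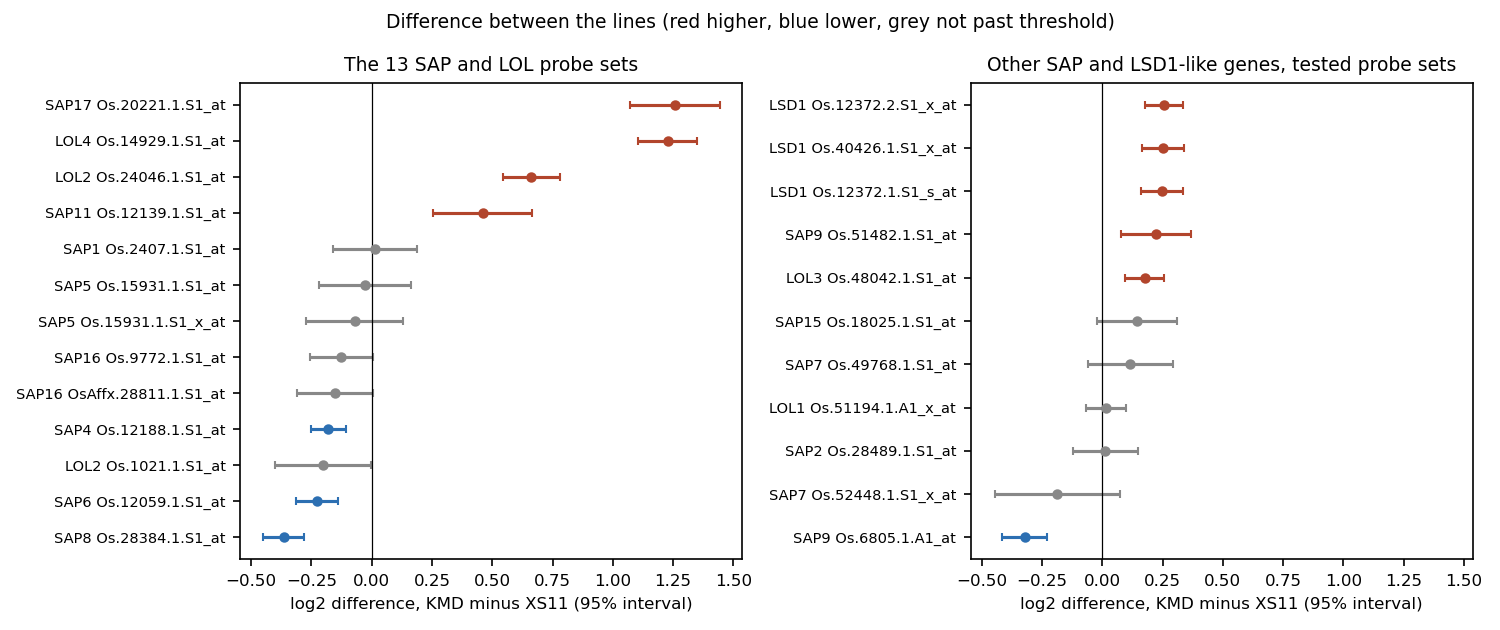
Log2 differences, KMD minus XS11 (horizontal axis), with 95% intervals from limma, for the 13 SAP and LOL probe sets (left) and the 11 tested probe sets of other SAP and LSD1-like genes (right), on one scale. Red passed as higher in KMD, blue as lower, grey did not pass. SAP17 (1.26) and LOL4 (1.23) lie beyond the range of the other genes on the right, which runs from -0.32 to 0.26. Both had been chosen for the size of this difference, so nothing is read from that.

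The arrays hold 8 further genes of these families, read by 14 probe sets of which 11 were tested. They were listed by family and not by their values, although results of these arrays were known by then. LSD1 itself (LOC4344713), a restraint on cell death in rice, read 2649, 2808 and 2538 in KMD and 2180, 2245 and 2300 in XS11 on its brightest probe set. It rose by a log2 difference of 0.25 (SE 0.04, limma adjusted p = 2e-04), and its other tested probe sets rose by 0.26 (limma adjusted p = 7e-05) and 0.25 (limma adjusted p = 0.000186). All its tested probe sets are of the s_at or x_at type, which can also take signal from related transcripts. Its plain probe set read 17.8, 25.3 and 20.3 in KMD and 19.3, 17.5 and 18.0 in XS11. That probe set overlapped between the lines and was too dim to be tested. LOL3 (LOC4333536) read 816, 839 and 803 in KMD and 738, 712 and 722 in XS11, and rose by 0.18 (SE 0.04, limma adjusted p = 0.00167). LOL1 (LOC4343203) overlapped between the lines, with a log2 difference of 0.02 (SE 0.04, limma adjusted p = 0.796).

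Among the other SAP genes the differences were small, and SAP9 gave conflicting readings. Its bright probe set read 1362, 1488 and 1414 in KMD and 1732, 1728 and 1876 in XS11, lower in KMD by a log2 difference of -0.32 (SE 0.04, limma adjusted p = 4.02e-05). Its dimmer probe set read 165, 165 and 184 in KMD and 137, 158 and 141 in XS11, higher in KMD by 0.22 (SE 0.07, limma adjusted p = 0.0182). The second call was lost without KMD replicate 3 (0.17, limma adjusted p = 0.0969) or without XS11 replicate 1 (0.18, limma adjusted p = 0.0688). No direction is therefore given for SAP9. SAP15 (0.14, limma adjusted p = 0.164), SAP2 (0.01, limma adjusted p = 0.905) and SAP7 (0.12, limma adjusted p = 0.29, on its brighter probe set and -0.19, limma adjusted p = 0.25, on its dimmer tested one) did not pass, and SAP14 was too dim to be tested.

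The LSD1 family as named here had 6 genes (LSD1, LOL1, LOL3, LOL4, LOC4352767 and LOC4325320), of which LOL4 had been chosen for its rise. Of the 3 genes that were not members, LSD1 and LOL3 rose and LOL1 did not pass, where over all genes, each read by its brightest probe set, 23.2% rose and 33% fell. These directions depend on the reference level. Bacterial poly-A transcripts are spiked into the RNA before labelling, and each of their 36 probe sets gave more signal in KMD, with a mean log2 difference of 0.62. When each array was centred on these spike-ins, LSD1 (-0.37) and LOL3 (-0.45) passed as lower in KMD, LOC4352767 no longer differed enough to pass (0.04, limma adjusted p = 0.671), and SAP11 turned to -0.16 without passing. On that scale SAP17 (0.64) and LOL4 (0.61) were still higher, while all the remaining members were at -0.61 or lower.

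**Figure D3:**
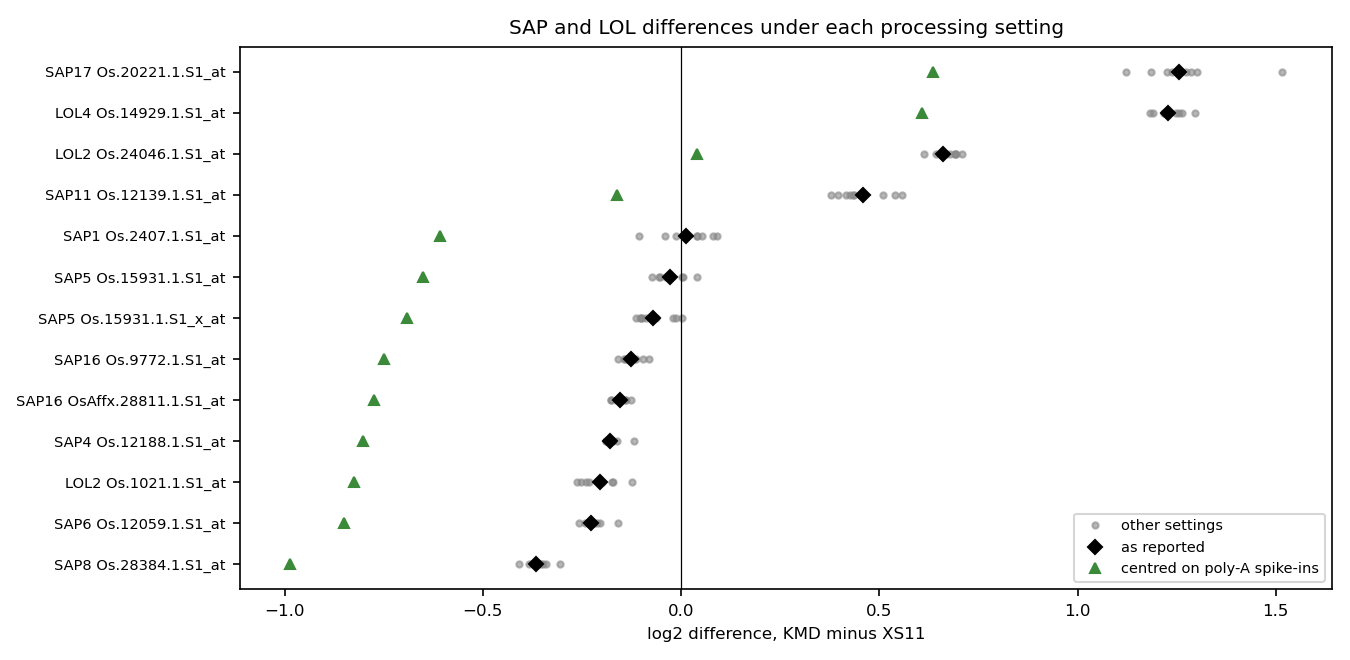
Log2 differences, KMD minus XS11 (horizontal axis), of the 13 SAP and LOL probe sets as reported (black diamonds), centred on the poly-A spike-ins (green triangles) and under the other processing settings (grey points). Centring on the spike-ins moves every member down by 0.62, and SAP17 and LOL4 alone stay well above 0.

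In the naming assembly SAP6, SAP7 and SAP14 are direct neighbours, which the choice of members did not use. SAP6 was bright and lower in KMD, SAP7 read 47.5 ± 2.40 in KMD and 42.9 ± 2.17 in XS11 (SD, n = 3 each) on its brighter probe set, and SAP14 was dim. Of the 10 tested genes within 8 genes of SAP6 on either side, SAP7 included, 1 passed, LOC4334399 at -1.27, where 56.2% of all genes did. These neighbouring family genes thus differed in the size of their signal. SAP7 did not pass and SAP14 was not tested, so whether they share a direction with SAP6 cannot be said.

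The genes around SAP17, LOL4 and LOC4352767 were examined in the same way, a look added after the values were known. Of 7 tested neighbours of SAP17, 1 passed as higher and 2 as lower, between -0.50 and 0.41. Of 9 tested neighbours of LOL4, 3 passed as higher and 5 as lower, between -0.74 and 0.63. Of 9 tested neighbours of LOC4352767, 1 passed as higher and 5 as lower, between -0.79 and 0.14. Over all genes 23.2% passed as higher and 33% as lower. Neighbours of each of these members passed in both directions.

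**Figure D4:**
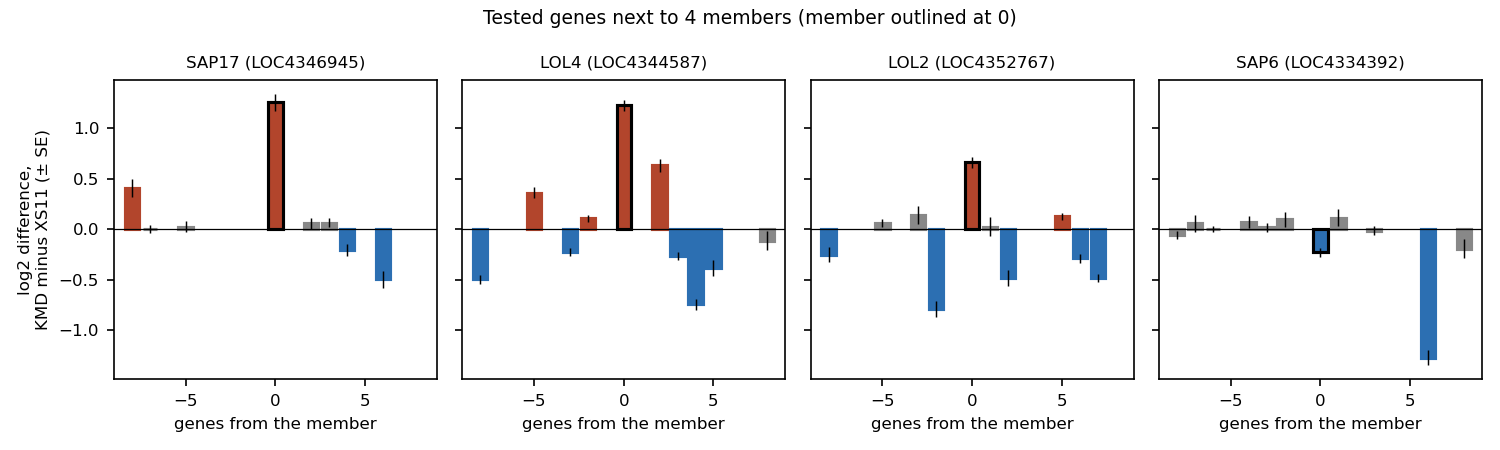
Log2 difference, KMD minus XS11 (vertical axis, bars with SE), of tested genes by their order along the chromosome from SAP17, LOL4, the LOL2 gene LOC4352767 and SAP6 (outlined, at 0). Red passed as higher in KMD, blue as lower, grey did not pass, and genes not measured or too dim leave gaps. The neighbours of SAP17 and LOL4 stay between -0.74 and 0.63.

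Among 2534 tested probe sets with a named gene, those closest to SAP17 in their pattern over the 6 arrays were CML31, spdSyn1 and ILL8, and the same 3 genes were closest to LOL4. Closeness was the Euclidean distance between log2 signals after each probe set's own mean was removed. For SAP17 the distance was 0.14 to CML31, 0.16 to spdSyn1 and 0.19 to ILL8. For LOL4 it was 0.16 to CML31, 0.20 to ILL8 and 0.26 to spdSyn1. CML31, a calmodulin-like gene, read 231, 227 and 231 in KMD and 90.5, 89.8 and 86.6 in XS11. spdSyn1, named as a spermidine synthase, read 1307, 1190 and 1209 in KMD and 560, 565 and 498 in XS11. ILL8 is named as an IAA-amino acid hydrolase-like gene and read 84.7, 86.0 and 91.5 in KMD and 29.1, 28.2 and 28.5 in XS11. With only 2 groups of arrays, a probe set is close by this measure where its difference between the lines is of like size.

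A list of SAP and LOL partners and of cell death genes held 22 names, which matched 5 genes, and most of these fell. The matched genes were catalase genes and genes named SPL7 or SPL11. The receptor-like cytoplasmic kinases on the partner side were not among them, so nothing is said here of SAP partners. Among the 5 tested genes on this list 4 fell, 1 did not pass and 0 rose, and the median was -0.42, where over all genes 23.2% rose, 33% fell and the median was -0.03. The listed SPL7 (LOC4339409), a heat stress transcription factor whose loss gives spotted leaves, read 97.5, 101 and 114 in KMD and 267, 256 and 276 in XS11 and fell by 1.27 on the log2 scale (SE 0.06, limma adjusted p = 4.28e-09). The catalase gene CATA read 1057, 1203 and 1101 in KMD and 1787, 1754 and 1766 in XS11, a log2 difference of -0.66 (SE 0.04, limma adjusted p = 6.15e-08). The catalase gene CATB (-0.42) and SPL11 (-0.39), a ubiquitin ligase that restrains cell death, also fell. SPL7 on this list is a second gene name shared by 2 genes, and the other, LOC4336597, did not pass (0.11, limma adjusted p = 0.383).

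Most transcription factors of drought, cold and salt responses did not pass. Among 14 tested genes 9 did not pass, 2 rose and 3 fell, and the median was -0.02, where over all genes 56.2% passed and the median was -0.03. ABF2, an abscisic acid-responsive bZIP factor, fell from 474 ± 11.3 in XS11 to 326 ± 10.5 in KMD (SD, n = 3 each), or by 0.53 on the log2 scale (SE 0.04, limma adjusted p = 5.02e-07). The gene with the largest rise was LOC4348646, matched through its synonym HSFA2C but also listed as ARD1. It stood at 3.21 on its brightest probe set and at -0.07 on its other tested probe set, and the annotation does not say which transcript each one reads. HSFA3 (-0.34) passed narrowly, and not without KMD replicate 3 (-0.19), XS11 replicate 1 (-0.34) or XS11 replicate 2 (-0.31). DREB1A, a cold-response factor, stood at 0.26, and its call was lost without KMD replicate 2 (0.22), KMD replicate 3 (0.22), XS11 replicate 1 (0.27) or XS11 replicate 2 (0.21).

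Late embryogenesis abundant proteins and dehydrins protect cells that lose water. Among 6 tested genes for them 4 fell, 2 did not pass and 0 rose, and the median was -0.27, where over all genes 33% fell, 23.2% rose and the median was -0.03. LEA19 fell by 1.34 and RAB16C by 0.70 on the log2 scale. LEA19 read 13.4, 21.0 and 12.6 in KMD and 60.3, 52.8 and 55.7 in XS11, on a probe set of the s_at type. Its KMD mean of 15.7 lay below the 25th percentile of all values (18.5), so the size of its fall leans on the added constant. The dehydrin gene DHN1 fell by 0.34 and SALT, a salt-induced lectin gene, by 0.20, each on its brightest probe set. A dimmer tested probe set of each of these genes stood at -0.10 and -0.05.

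Most genes on a list of leaf photosynthesis genes were among the strong signals, in keeping with the labelled tissue. RBCS and CAB2R, for the small subunit of Rubisco and a light-harvesting protein, had mean signals of 16012 and 10429 in KMD and of 16111 and 10598 in XS11. The summed signal of 6 leaf photosynthesis genes ran from 53122 to 54103 over the KMD arrays and from 56079 to 56987 over the XS11 arrays. Of the 5 tested, 2 fell, RCA (-0.18) and LFNR1 (-0.28), where 33% of all genes fell. RBCS-A, with means of 19.5 in KMD and 15.5 in XS11, was too dim to be tested. The summed signal of 10 genes on a list of root-expressed genes ran from 1348 to 1359 over the KMD arrays and from 2693 to 2770 over the XS11 arrays. Of the 6 of these tested, 1 rose and 5 fell, where over all genes 23.2% rose and 33% fell. The brightest, NAAT1, had mean signals of 465 in KMD and 961 in XS11, at percentile 93.1 of mean signal. Of the 10 genes, 3 stayed below the 25th percentile of all values (18.5) on every array. Control transcripts read at both ends, which bear on how intact the RNA was, also differed between the lines, though not all one way. For actin the signal near the 3′ end over that near the 5′ end was 5.79 ± 0.14 in KMD against 4.62 ± 0.30 in XS11, and for GAPDH it was 3.48 ± 0.05 against 2.75 ± 0.21 (SD, n = 3 each). For ubiquitin it was 1.17 ± 0.025 against 0.985 ± 0.027, and for the control named Cyph it was lower in KMD, at 0.906 ± 0.059 against 1.06 ± 0.049. The part of these markers and ratios in the members' differences was not tested.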

How the data were processed

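Leaf RNA of 3 KMD and 3 XS11 samples, grouped by title, was hybridised to Affymetrix rice arrays. The authors deposited 1 linear intensity per probe set and array, and the submitters' processing notes name MAS5. Which version and scaling target they used, and whether they normalized further, is not given in the sources used here. Scanner files and detection calls were not used here. Names came from the platform annotation and the RefSeq table of assembly ASM3414082v1. That annotation gave 1 gene to 22436 probe sets, several to 95, which stayed unnamed, and none to 34850. No genome build is named for the values, so no positions are given, and member sequences were not used here.

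Signals were taken as log2(signal + 11.17). The brightest 60% by mean log2 signal and the 64 reporter probe sets were tested, and 123 control probe sets were left out. limma (lmFit, then eBayes with trend) gave two-sided p-values, adjusted after Benjamini-Hochberg. The script was tested on simulated data. The number of arrays limits the precision. The members and all lists were chosen with earlier results of these data known. All members are named, as are the 3 genes nearest to SAP17 and LOL4. Up to 4 passing genes per list are named by size of change, except for the leaf and root lists. A gene on a list was read by its brightest probe set. Alternatives were pseudocounts of 1 and 18.5, no filter or the upper 40%, quantile normalization, median or spike-in centring, eBayes without the trend, array weights, a replicate block and leaving out each array. Tools were Python 3.11.15 with pandas 2.3.3, numpy 2.4.6 and matplotlib 3.10.9, and R 4.3.3 with limma 3.58.1.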

Additional observations from a re-analysis of the deposited data

How the results depend on the processing

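The 7 calls among the SAP and LOL probe sets were made under most alternatives, leaving out any array included (7 to 7, and 11856 to 13487 over all probe sets). In the upper 40% of signal 9 of the member probe sets were tested and 6 passed. SAP17 was too dim to be tested there. Without the trend 8 passed, with SAP16 added. Centring on the poly-A spike-ins gave 11 member calls, 2 higher and 9 lower, and 32924 over all probe sets, 324 higher and 32600 lower, against 6222 and 7438 as reported. Under it SAP1 (-0.61), SAP11 (-0.16), SAP15 (-0.48), SAP2 (-0.61), SAP7 (-0.50), the dimmer SAP9 probe set (-0.40), the LSD1 probe sets (-0.37, -0.36 and -0.37), LOL3 (-0.45), LOL1 (-0.61) and DREB1A (-0.36) turned lower in KMD. Values near 0 also changed sign with array weights: SAP1 (-0.013), SAP5 (0.0026), SAP2 (-0.020) and LOL1 (-0.010). On leaving out 1 array SAP1 ran from -0.11 to 0.092, SAP5 from -0.072 to 0.041 and, on its x_at probe set, from -0.11 to 0.0021, while SAP2 ran from -0.043 without XS11 replicate 3 to 0.042 and LOL1 from -0.0060 without XS11 replicate 1 to 0.043. The lower SAP1 values came without KMD replicate 2 (-0.11) and XS11 replicate 1 (-0.041). SAP5 turned without KMD replicate 1 (0.041) and XS11 replicate 3 (0.0037). HSFA3 did not pass without the trend (-0.34). The cause was not tested.

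Samples with the same replicate number did not deviate together (correlations of -0.24, -0.01 and -0.25), so the numbers are not taken as pairs. With the replicate block 7 members and 12450 probe sets passed, and DREB1A (0.26) did not.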
